A study of Homo sapiens with 4 samples.

Results

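Long intergenic noncoding RNAs (lincRNAs) with a LINC symbol were examined in MDA-MB-231 cells, a human triple-negative breast cancer line of mesenchymal type, after CTGF siRNA and kahweol. Members were selected on a measured value. They are the genes of lncRNA biotype whose symbol is LINC followed by a number and whose read counts averaged at least 50 over the 4 RNA-Seq libraries. Of 1726 LINC genes in the deposited table of 35993 genes, 98 passed. A further 146 had a mean count of 10 to under 50, and 600 of the 1726 had a count in any library. The 3 members nearest to the limit were LINC01537, LINC00337 and LINC02475, with mean counts of 53.75, 54 and 54.5. The 3 genes just outside it were LINC02012 and LINC00653, with mean counts of 49.5 each, and LINC01137, with 48.25. The mean count chose the members, so their levels are given as a description.

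The 4 conditions were CTGF siRNA with kahweol, control siRNA (siControl) with kahweol, CTGF siRNA (siCTGF) without kahweol, and siControl without kahweol, with 1 library each. All cells, the untreated included, had been transfected, with 1 siRNA against CTGF or 1 control siRNA. Kahweol, a diterpene of coffee beans, was given at 50 µM for 48 h according to the sample labels, while the study's text also gives a shorter time, and no vehicle was named for the untreated cells. No condition has a replicate, so variation between cultures, transfections and library preparations was not measured. The intervals given for differences between single libraries cover counting error only. With 1 line in bulk culture, fewer cells that express an RNA and less of it per cell cannot be told apart.

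LincRNAs are transcripts of RNA polymerase II that are usually capped, spliced and polyadenylated and do not encode a known protein. Many are made at low levels, stay in the nucleus and are degraded by the nuclear exosome, and many show a narrower tissue range than mRNAs. Some act on neighbouring genes from their own locus, and others bind proteins elsewhere in the cell, while for most LINC genes no function is established.

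The libraries held 44781516 to 59129784 read counts. In kahweol-treated cells, mitochondrial rRNA took 6.01% of counts with siCTGF and 4.33% with siControl, against 3.11% and 3.94% in untreated siCTGF and siControl cells. Small noncoding RNA took 3.60% to 3.86% of counts with kahweol and 2.43% to 2.74% without, and all lncRNA genes 0.735% to 0.877% over the 4 libraries. The part of these shares in the results was not tested. CTGF (CCN2), the siRNA target and a secreted matricellular protein, was lower in siCTGF than in siControl cells in both treatment arms, by 2.55 on the log2 scale with kahweol (31.8 against 186 CPM) and by 1.32 without it (63.6 against 159 CPM). The mesenchymal markers VIM, AXL, CD44, FN1 and SPARC averaged 2538, 320, 129, 32.1 and 10.7 TPM. The receptors ESR1 and PGR averaged 0.017 and 0.047 TPM. ERBB2, EPCAM, CDH1 and the keratin KRT19, also entered as low for this line, averaged 25.3, 31.6, 3.46 and 271 TPM. PTPRC and PECAM1, leukocyte and endothelial markers, averaged 0.027 and 0.12 TPM, and luminal KRT8 and KRT18 averaged 348 and 473 TPM.

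The members were low in level. Their mean TPM, which corrects for transcript length, ran from 0.378 to 21.8 with a median of 3.17, and their mean count had a median of 154.5 and a maximum of 2706. All 98 together took 0.0557% and 0.0554% of counts in kahweol-treated siCTGF and siControl cells, against 0.0705% and 0.0727% in untreated siCTGF and siControl cells. Their summed TPM was 377 and 375 with kahweol in siCTGF and siControl cells, against 552 and 579 without it. By TPM, the median log2 fold change of all genes with kahweol lay at -0.25 in siCTGF and -0.24 in siControl cells. The TPM values of single members below carry the same scaling. Summed CPM, scaled by TMM, differed less: 593 and 574 with kahweol in siCTGF and siControl cells, against 675 and 688 without it. Both kahweol libraries thus lay below both untreated ones in the summed level.

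LINC02085, at the head of the list by TPM, had 11.1 and 16.4 TPM in kahweol-treated siCTGF and siControl cells, against 29 and 30.8 TPM in untreated siCTGF and siControl cells. LINC01116 had 13.2 and 12 TPM with kahweol in siCTGF and siControl cells, against 27.6 and 32 TPM without it. For both, the kahweol libraries were low and did not overlap with the untreated ones. LINC02210, next by mean TPM, stayed between 20.1 and 22.5 TPM in all 4 libraries, so the order of the top members differed with treatment. LINC02210 lies on the same strand as its read-through gene LINC02210-CRHR1, and their reads cannot be told apart. LINC01605 had 17.5 and 16.9 TPM with kahweol in siCTGF and siControl cells, against 23.4 and 28.8 TPM without it. LINC01605 is listed at several loci in the table and is uncertain. Behind these came LINC01578, LINC00888, LINC00467, LINC01184, LINC02693 and LINC00673.

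**Figure D1:**
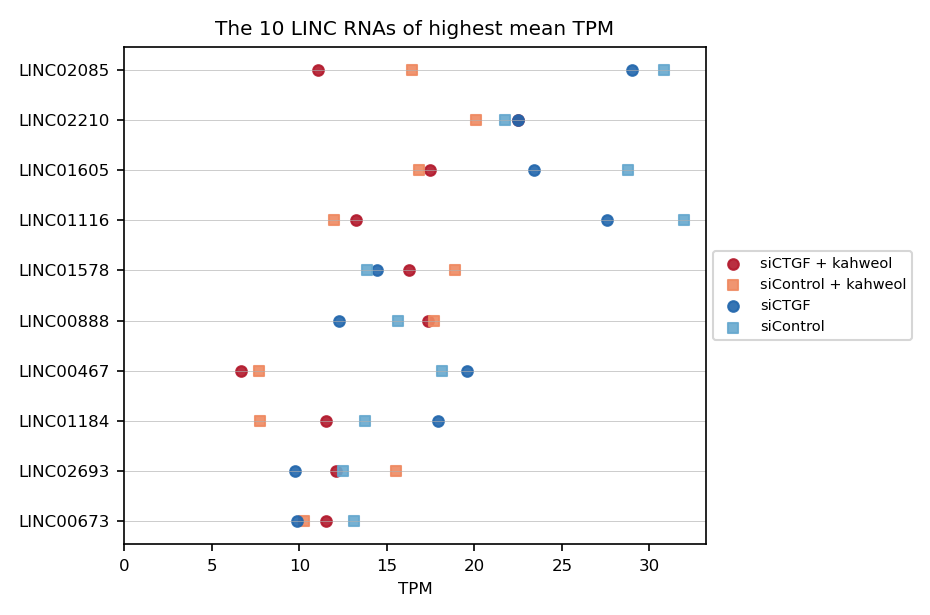
The 10 members of highest mean TPM, with TPM on the horizontal axis and 1 point per library (siCTGF with kahweol, siControl with kahweol, siCTGF, siControl). LINC02085 and LINC01116 had 11.1 to 16.4 TPM with kahweol and 27.6 to 32 TPM without it, while LINC02210 lay between 20.1 and 22.5 TPM in all libraries.

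Which lincRNAs changed with kahweol was addressed in each siRNA arm and in a fit over all 4 libraries. In both arms, more members were lower than higher in kahweol-treated cells. In siCTGF cells, 44 of 98 members (44.9%) were under a fold of 0.7, against a background of 24.2% of the 16599 genes kept (10 or more counts on average), and 22 (22.4%) were over a fold of 1.3, against 28.4%. In siControl cells, 48 members (49.0%) were under 0.7, against 26.3% of all genes, and 16 (16.3%) were over 1.3, against 28.1%. The median log2 fold change of the members was -0.34 in siCTGF and -0.50 in siControl cells, beside -0.00 and -0.02 over all genes. With log2(TPM + 0.1), where the median of all genes lay at -0.25 and -0.24, 55.1% and 56.1% of members were under 0.7 in siCTGF and siControl cells and 12.2% and 11.2% over 1.3. The 95% counting interval lay below 0 for 41 of the 44 and 46 of the 48 members under 0.7, and above 0 for 18 of the 22 and 12 of the 16 over 1.3.

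The additive fit (edgeR's quasi-likelihood test, 2 kahweol against 2 untreated libraries with siRNA as covariate, Benjamini-Hochberg over all 16599 genes) called 31 members lower (31.6%), against 23.6% of all genes, and 9 higher (9.18%), against 22.9%. DESeq2 called 24 lower and 7 higher (3253 and 3290 of the 16599 genes), and limma-voom 34 lower and 10 higher (4062 and 3960 genes). Both kahweol libraries lay below both untreated ones for 58 members, against 37.1% of all genes, and above them for 20, against 36%. The lowest CPM of a member fell in the siControl library with kahweol for 39 members and in the siCTGF library with kahweol for 30. With kahweol, 36 members (36.7%) were under 0.7 in both siRNA arms, against 18.2% of all genes, and 13 (13.3%) over 1.3 in both, against 20.7%. Another 3 were past opposite thresholds, as were 382 of the 16599 genes. The sign was the same in both arms for 86 members (87.8%), against 82.9% of all genes, and the log2 fold changes of the arms had a Pearson r of 0.72 over 98 members and 0.65 over all genes. These arms share no library.

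**Figure D2:**
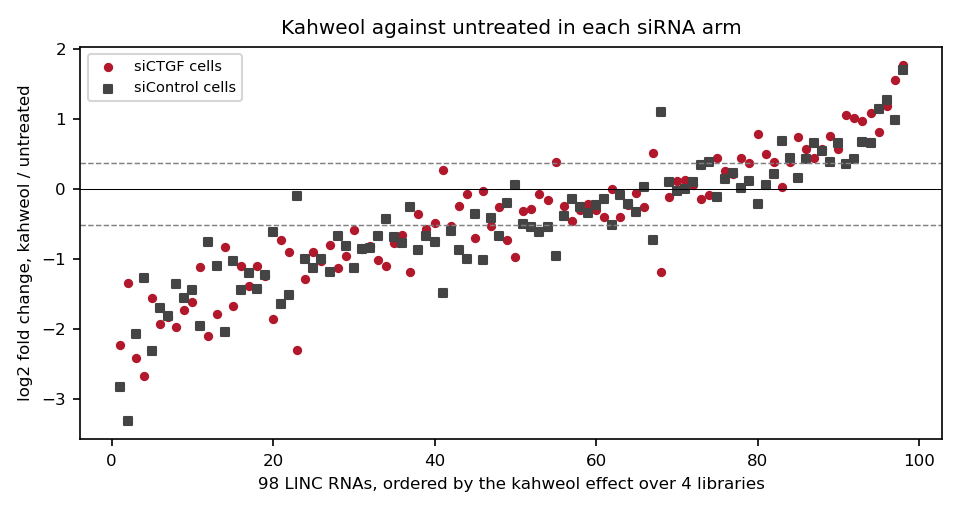
Log2 fold change of kahweol against untreated for the 98 members, ordered by the kahweol effect of the additive fit, with circles for siCTGF cells and squares for siControl cells and dashed lines at folds of 1.3 and 0.7. More points lie under the lower line (44 in siCTGF cells, 48 in siControl cells) than over the upper one (22 and 16).

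Genes of like level were also compared. Protein-coding genes with a mean count of 50 to 500 (2906 genes) were more often lower than higher: 37.1% were under 0.7 with kahweol in siCTGF cells and 40.2% in siControl cells, and the fit called 26.8% lower and 12.8% higher. Other lncRNA genes averaging 50 or more counts (452 genes) had 36.3% and 44.2% under 0.7 in siCTGF and siControl cells, with 23.9% called lower and 11.5% higher. LINC genes with a mean count of 10 to under 50 had 49.3% and 56.8% under 0.7. Protein-coding genes of at least 50 counts without an upper limit had 22.6% and 23.5%. The members thus stood nearer to genes of like level than to all genes, and whether they differ from genes of like level was not tested. The choice of members by the mean over all libraries also lets in RNAs that were low in one treatment: 16 members had fewer than 50 counts in both kahweol libraries, 10 of them called lower, and 2 had fewer than 50 in both untreated libraries. The 10 were LINC00342, LINC00513, LINC00654, LINC00880, LINC01106, LINC01204, LINC01224, LINC01411, LINC01537 and LINC02615, which passed the limit only through the untreated libraries. The 2 were LINC00672 and LINC02561, both called higher, which passed only through the kahweol libraries. The changes of these RNAs are given as a description.

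**Figure D3:**
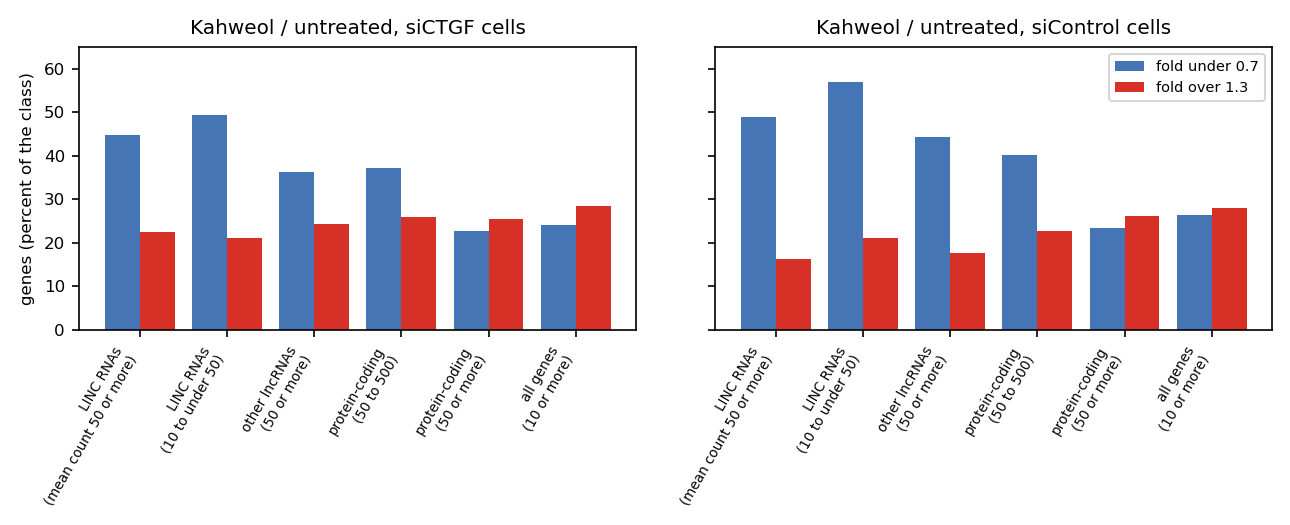
Share of genes in percent under a fold of 0.7 and over a fold of 1.3 with kahweol, in siCTGF cells (left) and siControl cells (right), for the 98 members and 5 other gene classes, with mean counts in brackets. The members had 44.9% and 49.0% under 0.7, low-count protein-coding genes 37.1% and 40.2%, and all genes 24.2% and 26.3%.

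Among the 31 members that fell with kahweol, LINC01521 had the lowest estimate. It had 1.55 and 0.834 CPM in kahweol-treated siCTGF and siControl cells (69 and 36 counts), against 7.45 and 6.16 CPM in untreated siCTGF and siControl cells (403 and 385 counts), an effect of -2.55 ± 0.29 (log2, SE; adjusted p = 0.000378, edgeR). Both kahweol libraries were far under both untreated ones. LINC00654 had 0.541 and 0.625 CPM with kahweol in siCTGF and siControl cells, against 3.05 and 2.75 CPM without it (-2.31 ± 0.39, adjusted p = 0.0022). LINC01204 had 1.04 and 0.347 CPM with kahweol in siCTGF and siControl cells, against 2.68 and 3.81 CPM without it (-2.31 ± 0.54, adjusted p = 0.00943). Its 2 kahweol libraries differed from each other by more than its untreated ones, with 46 and 15 counts, although neither overlapped with the untreated libraries. Because LINC00654 and LINC01204 passed the count limit only through the untreated libraries, their fall is a description. LINC01521, LINC01204 and LINC00654 also had the widest spread of log2 CPM among the members over the 4 libraries, with SDs of 1.51, 1.49 and 1.298, against a spread of 0.065 to 0.094 in LINC00960, LINC00869 and LINC00663.

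LINC02657, now named LASTR, is a hypoxia-induced RNA of breast cancer cells that binds the splicing factor SART3. It had 1.17 and 0.741 CPM with kahweol in siCTGF and siControl cells, against 3.51 and 3.84 CPM without it, and the effect was -1.96 ± 0.36 (adjusted p = 0.00345, edgeR). LINC00513, reported as a regulator of interferon signalling, had 0.496 and 0.695 CPM with kahweol, against 1.87 and 2.54 CPM without it (-1.89 ± 0.41, adjusted p = 0.00731). The treated and untreated libraries did not overlap for either RNA. LINC00880 had 0.315 and 0.602 CPM with kahweol in siCTGF and siControl cells (14 and 26 counts), against 1.31 and 2.03 CPM without it (-1.89 ± 0.47, adjusted p = 0.0129). LINC02615 was as low, with 12 and 30 counts with kahweol in siCTGF and siControl cells, against 104 and 108 counts without it (-2.0 ± 0.54, adjusted p = 0.0174). LINC00342 had 0.946 and 1.13 CPM with kahweol, against 3.22 and 3.41 CPM without it (-1.67 ± 0.34, adjusted p = 0.00523). In each of these the kahweol values were under those of both untreated libraries. Because LINC00513, LINC00880, LINC02615 and LINC00342 passed the count limit only through the untreated libraries, their fall is a description.

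Members with more counts gave narrower estimates. LINC00205 had 699 and 496 counts with kahweol in siCTGF and siControl cells, against 1590 and 2048 without it, or 15.7 and 11.5 CPM against 29.4 and 32.8 CPM (-1.20 ± 0.15, adjusted p = 0.000626, edgeR). LINC01806 had 5.75 and 5.14 CPM with kahweol, against 18.3 and 10.5 CPM without it (-1.36 ± 0.19, adjusted p = 0.00101). LINC01963 had 4.64 and 4.82 CPM with kahweol, against 12.2 and 11.1 CPM without it (-1.3 ± 0.17, adjusted p = 0.000752). All 3 were low in both kahweol libraries, and LINC01806 was also higher in the untreated siCTGF than in the untreated siControl library. LINC00963, studied in prostate cancer, had 5.65 and 6.97 CPM with kahweol, against 11.5 and 13.9 CPM without it (-1.01 ± 0.15, adjusted p = 0.00139). LINC00472, described as tumour-suppressive in breast cancer, had 29.1 and 21.7 CPM with kahweol in siCTGF and siControl cells, against 40.9 and 36.5 CPM without it (-0.62 ± 0.10, adjusted p = 0.00224). Its change was small but its libraries did not overlap.

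The other members called lower had effects of -1.75 (LINC01537) to -0.41 (LINC01184). Of these, LINC01537, LINC01224, LINC01106 and LINC01411 passed the count limit only through the untreated libraries. LINC01224, LINC01615, LINC01270, LINC00346, LINC01106, LINC00839, LINC01411, LINC00467 and LINC01123 had effects of -1.56 to -1.02. LINC01116, LINC02085, LINC00857, LINC02535, LINC02035, LINC00294 and LINC00667 had effects of -0.99 to -0.47. LINC02035 rested mainly on the siCTGF arm, with a log2 fold change of -1.18 there and -0.25 in siControl cells. LINC01106 and LINC01123 have transcripts that are 99.5% identical over 92.3% of the LINC01106 transcript, so their reads may be shared and their calls are not separate. LINC01001 and LINC01347, not called, also have a near-identical copy elsewhere in the genome. LINC00880 and LINC02085 match genes that overlap them, LINC02029 and AC106712.1.

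**Figure D4:**
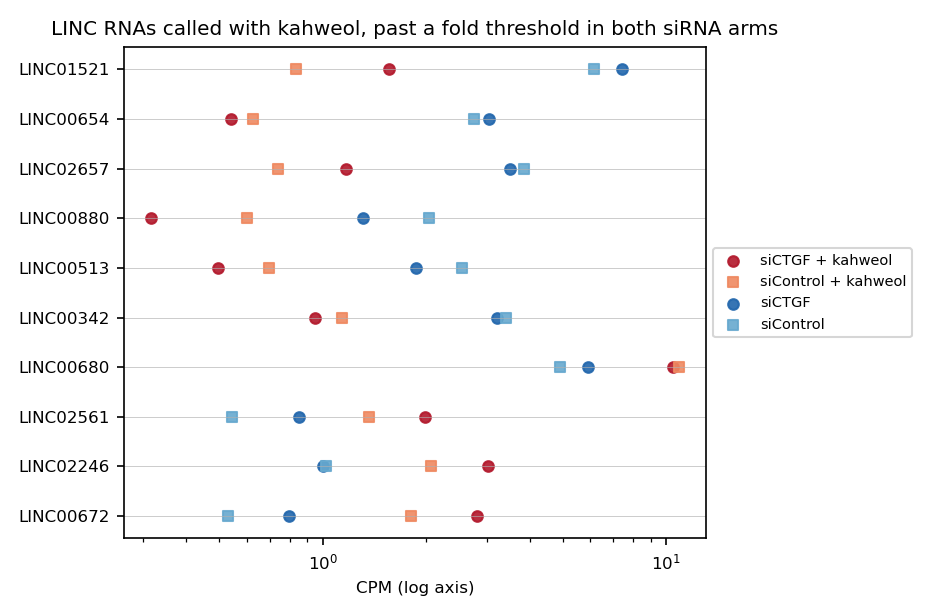
CPM on a log axis, with 1 point per library, for the 10 members called in the additive fit that are among the 6 lowest or 6 highest past the same fold threshold in both siRNA arms. In the 6 upper genes, LINC01521 to LINC00342, both kahweol points lie left of both untreated points, and in the 4 lower genes, LINC00680 to LINC00672, they lie right. LINC00654, LINC00513, LINC00880 and LINC00342 passed the count limit only through the untreated libraries, and LINC00672 and LINC02561 only through the kahweol libraries.

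The 9 members that rose with kahweol were led by LINC00672, now LASP1NB, which is reported to lower its neighbour LASP1. LINC00672 had 2.82 and 1.81 CPM in kahweol-treated siCTGF and siControl cells (125 and 78 counts), against 0.795 and 0.528 CPM in untreated siCTGF and siControl cells (43 and 33 counts), an effect of 1.80 ± 0.41 (log2, SE; adjusted p = 0.00856, edgeR). LASP1, an actin-binding protein gene 3398 bases away, had an effect of -0.11 (adjusted p = 0.215) and was not called. LINC02246 had 3.02 and 2.06 CPM with kahweol in siCTGF and siControl cells, against 0.998 and 1.02 CPM without it (1.3 ± 0.38, adjusted p = 0.0255). LINC02561 had 1.98 and 1.37 CPM with kahweol, against 0.850 and 0.544 CPM without it (1.27 ± 0.44, adjusted p = 0.0471). LINC00680 had 10.4 and 10.9 CPM with kahweol, against 5.93 and 4.90 CPM without it (0.98 ± 0.18, adjusted p = 0.00341). In these 4 RNAs both kahweol libraries lay above both untreated ones. Because LINC00672 and LINC02561 passed the count limit only through the kahweol libraries, their rise is a description.

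LINC01578 is CHASERR, a lincRNA that represses the neighbouring chromatin remodeller gene CHD2 from its own locus. It had 16.8 and 18.1 CPM with kahweol in siCTGF and siControl cells, against 12.3 and 11.5 CPM without it (0.55 ± 0.13, adjusted p = 0.0102, edgeR). CHD2, 1577 bases away on the same strand, rose with it, by 0.67 (adjusted p = 0.000774). LINC02693 had 2569 and 3012 counts with kahweol in siCTGF and siControl cells, against 2099 and 2992 counts in the larger untreated libraries. Scaled to CPM these were 57.9 and 69.8 with kahweol and 38.8 and 47.9 without it (0.56 ± 0.09, adjusted p = 0.00191). With log2(TPM + 0.1) its log2 fold change was 0.31 in siCTGF and 0.31 in siControl cells, inside the fold threshold. LINC00630, LINC01128 and LINC00888, now SNHG33, had effects of 0.72, 0.62 and 0.57. By TPM, these RNAs and LINC01578 were each inside a fold of 1.3 in 1 arm. In siCTGF cells, LINC01128 had 3.92 TPM with kahweol and 3.33 without, and LINC01578 16.3 and 14.4. In siControl cells, LINC00630 had 5.56 TPM with kahweol and 4.77 without, and LINC00888 17.7 and 15.6. LINC00630 overlaps RAB40AL and ARMCX5-GPRASP2 on the same strand, and the reads of these genes may not be separable. LINC00324 and LINC00942 were over 1.3 in both arms, with effects of 0.89 and 0.84, but were not called (adjusted p = 0.109 and 0.0994).

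A list of 30 lincRNAs studied in carcinoma cells had 15 members here, of which 7 fell and 0 rose, with a median effect of -0.34 beside -0.46 over all members and -0.01 over all genes. Over all members 31.6% fell and 9.18% rose, and over all genes 23.6% fell and 22.9% rose. The 7 were LINC00205, LINC00342, LINC00467, LINC00472, LINC00857, LINC00963 and LINC01116, and they include RNAs described as growth-promoting and LINC00472, described as tumour-suppressive. LINC00673, which is known for its part in PTPN11 degradation, had 16.0 and 13.7 CPM with kahweol in siCTGF and siControl cells, against 11.7 and 14.8 CPM without it. Its kahweol and untreated libraries overlapped (effect 0.17, adjusted p = 0.428). Split by mean TPM into 3 groups, 9 of 33, 8 of 33 and 14 of 32 members were called lower, from the lowest group to the highest, and 2, 3 and 4 were called higher.

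The members were spread over 23 chromosomes, and their positions were not used to choose them. In the files' build (GRCh37.p13), 93 overlapped no protein-coding gene on either strand, at a median distance of 22587 bases from the nearest. LINC00476, LINC01184 and LINC01560 overlapped one on the opposite strand only (ERCC6L2, CCDC192 and ZNF41). On the same strand, LINC00630 overlapped RAB40AL and ARMCX5-GPRASP2, and LINC02210 overlapped LINC02210-CRHR1. The strand setting of the counting is not given in the sources used here, so reads of these overlaps may not be separable. LINC01521 lies at chr22:31742745-31747141 on the plus strand, 413 bases from the start of PATZ1, a zinc finger transcription factor gene of the opposite strand. LINC00205 lies at chr21:46707967-46717269 on the plus strand, 139 bases from POFUT2, an O-fucosyltransferase gene. PATZ1 had an effect of -0.26 with kahweol (adjusted p = 0.0557, edgeR) and was not called, whereas POFUT2 rose by 0.81 (adjusted p = 0.000648) beside LINC00205, which fell.

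In all, 11 members started within 1000 bases of a protein-coding gene of the opposite strand, of which 3 fell and 0 rose, beside 28 and 9 of the other 87 members. Of the 10 partners measured, 2 fell and 2 rose with kahweol, and 6 had the sign of their lincRNA. Beside the calls above, ICMT fell by 0.98 next to LINC00337 (-0.79, adjusted p = 0.213) and CXorf40B rose by 0.80 next to LINC00894, whose effect was -0.86 and not called. Over 79 members with a measured nearest gene, 23 of the neighbours fell and 20 rose. The fit called 28.6% of protein-coding genes averaging 50 or more counts lower and 27.8% higher. Of all genes kept, it called 23.6% lower and 22.9% higher. The counts among the 79 neighbours were near the shares of protein-coding genes. Next to the 31 members that fell, 26 neighbours were measured, of which 7 fell and 5 rose. OGFRL1 fell by 1.11 beside LINC00472, while CCNL1, a cyclin gene of RNA splicing, rose by 1.32 beside LINC00880 and MSX2, a homeobox gene, rose by 1.42 beside LINC01411. CTC1, a telomere maintenance gene 772 bases from LINC00324, fell by 1.41. The effects of members and neighbours had a Pearson r of -0.04 over 79 pairs, beside 0.15 over 1012 pairs of other lncRNA genes, as a description across genes of the same 4 libraries.

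Promoter sequences, from 250 bases before to 50 bases after the start site, were found in RefSeq (GRCh38.p14) for 81 of the 98 members, 26 of them among the 31 that fell and 5 among the 9 that rose. The members' promoters had a median ratio of observed to expected CpG of 0.576, against 0.826 for all genes kept and 0.580 for all 27305 promoters. It was 0.446 for members that fell and 0.619 for members not called. A total of 7 motifs were searched on both strands, and none of their counts was tested. The AP-1 site was searched as TGANTCA, with any base in the middle. These letters were in 7 of 26 promoters of members that fell (26.9%), 0 of 5 of those that rose and 7 of 50 of those not called (14%). They were in 7.76% of all promoters and 4.87% of those of genes kept. The TATA box letters TATAAA, searched at any place in the window, were in 26.9%, 0 and 8% of the same groups. They were in 11.95% of all promoters and 6.21% of those of genes kept. The antioxidant response element TGACNNNGC was in 19.8% of the members' promoters and 13.6% of all, the TEAD site GGAATG in 11.1% and 14.0%, and the GC box GGGCGG in 45.7% and 44.6%. For the promoters of genes kept, these shares were 15.0%, 11.1% and 68.2%. The cAMP response element TGACGTCA was in 2.47% of the members' promoters and 1.98% of all, and the ATF4 composite site TGATGNAAN in 1.23% and 3.67%, with 3.11% and 1.68% among genes kept. In members that fell, rose and were not called, the antioxidant response element was in 26.9%, 20% and 16%. In the same groups the TEAD site was in 19.2%, 0 and 8%, and the GC box in 42.3%, 20% and 50%. For the cAMP response element the shares were 0, 20% and 2%, and for the ATF4 site 3.85%, 0 and 0. An overlap of motifs was counted under each.

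The promoters below are those of 3 members that fell in both arms, followed by 2 that rose in both. They are read 5′ to 3′ along the strand of the gene, with motif matches of either strand in capitals. LINC00513 (chr7:130913214-130913513, plus strand) holds 2 matches to the AP-1 letters, TGATTCA and TGAATCA, which begin 180 and 46 bases before the start. It also holds a TEAD site on the other strand and the TATA box letters, which begin 215 and 240 bases before the start. LINC02657 (chr10:5596069-5596368, minus strand) holds 1 AP-1 site, which begins 59 bases before the start. LINC01521 (chr22:31346509-31346808, plus strand), which faces PATZ1, has a CpG ratio of 0.717 and holds a TEAD site, a GC box and the TATA box letters, all on the other strand. These begin 106, 43 and 159 bases before the start. LINC00672 (chr17:38925364-38925663, plus strand) and LINC02561 (chr10:5271187-5271486, minus strand) hold none of the letters searched and have low CpG ratios of 0.167 and 0.171.
LINC00513: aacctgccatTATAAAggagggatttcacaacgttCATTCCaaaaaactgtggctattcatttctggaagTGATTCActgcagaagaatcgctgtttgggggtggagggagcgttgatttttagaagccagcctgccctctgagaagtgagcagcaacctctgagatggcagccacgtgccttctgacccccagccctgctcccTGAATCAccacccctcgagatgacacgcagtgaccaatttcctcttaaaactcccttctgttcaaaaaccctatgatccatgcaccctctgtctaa
LINC02657: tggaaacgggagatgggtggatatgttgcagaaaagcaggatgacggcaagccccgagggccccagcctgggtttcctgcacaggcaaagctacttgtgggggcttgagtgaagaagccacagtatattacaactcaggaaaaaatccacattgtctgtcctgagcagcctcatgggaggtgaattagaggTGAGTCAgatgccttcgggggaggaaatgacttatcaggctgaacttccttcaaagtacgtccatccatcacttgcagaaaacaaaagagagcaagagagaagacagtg
LINC01521: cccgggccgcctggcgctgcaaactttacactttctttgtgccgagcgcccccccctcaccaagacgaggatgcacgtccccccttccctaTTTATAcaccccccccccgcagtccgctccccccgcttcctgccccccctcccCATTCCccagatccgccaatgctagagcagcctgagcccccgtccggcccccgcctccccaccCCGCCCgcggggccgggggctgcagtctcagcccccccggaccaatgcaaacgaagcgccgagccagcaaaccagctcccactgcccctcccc
LINC00672: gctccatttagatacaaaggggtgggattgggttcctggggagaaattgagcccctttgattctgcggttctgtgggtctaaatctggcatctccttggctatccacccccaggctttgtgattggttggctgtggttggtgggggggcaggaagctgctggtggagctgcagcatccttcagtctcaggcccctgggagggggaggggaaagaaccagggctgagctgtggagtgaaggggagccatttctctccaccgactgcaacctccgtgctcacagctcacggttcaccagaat
LINC02561: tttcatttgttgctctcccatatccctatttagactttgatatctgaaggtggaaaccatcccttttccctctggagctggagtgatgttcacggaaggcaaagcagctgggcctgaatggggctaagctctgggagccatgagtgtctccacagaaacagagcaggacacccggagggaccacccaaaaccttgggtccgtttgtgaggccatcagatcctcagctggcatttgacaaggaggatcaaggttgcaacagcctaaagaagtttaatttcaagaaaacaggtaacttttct
The matches describe these windows and do not show that a factor binds there.

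Machinery that acts on lincRNAs was measured as mRNA in the same libraries. Among all protein-coding genes averaging 50 or more counts, the fit called 28.6% lower and 27.8% higher with kahweol. Over all genes kept, it called 23.6% lower and 22.9% higher. Of 24 genes of nuclear RNA decay, 9 fell and 5 rose with kahweol (edgeR), with a median effect of -0.13. The 9 were the exosome subunits EXOSC8 (-0.86), EXOSC5 (-0.76), EXOSC2 (-0.69), EXOSC6, EXOSC4 and EXOSC10, the exosome cofactor MPHOSPH6, the cap-binding protein NCBP1 and the exonuclease XRN2. The 5 that rose were the adaptors ZC3H3 (1.13), RBM7 (1.07) and ZC3H18 (0.78), the exosome nuclease DIS3 (0.55) and the cap-linked SRRT (0.40). Of 10 genes of Polycomb repressive complex 2, a chromatin complex reported to bind many lincRNAs, MTF2 (0.77), AEBP2 and EED rose and RBBP4 (-0.68), PHF19 and RBBP7 fell. The catalytic subunits EZH2 and EZH1 had effects of 0.22 and 0.10 and were not called. The part of these genes in the members' levels was not tested.

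Which lincRNAs differed with CTGF siRNA was addressed in the presence and absence of kahweol. Fewer members were past a threshold than with kahweol, and the 2 treatment arms shared few of them. In kahweol-treated cells, 23 members (23.5%) were over a fold of 1.3, against 14.7% of all genes, and 12 (12.2%) under 0.7, against 7.83%. In untreated cells, 16 (16.3%) were over 1.3, against 9.63% of all genes, and 9 (9.18%) under 0.7, against 8.99%. Protein-coding genes with a mean count of 50 to 500 had 19.8% over and 13.9% under with kahweol and 10.1% over and 14.2% under without. Other lncRNA genes averaging 50 or more counts had 34.3% over and 7.74% under with kahweol. Without it they had 14.4% over and 10.4% under. The counting interval lay above 0 for 13 of the 23 and 11 of the 16 members over 1.3, and below 0 for 8 of the 12 and 9 of the 9 under 0.7. The median log2 fold change was 0.10 in kahweol-treated and 0.01 in untreated cells. With log2(TPM + 0.1), 18.4% were over 1.3 and 17.3% under 0.7 in kahweol-treated cells.

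In the additive fit over 4 libraries no member was called for siCTGF in either direction (edgeR), against 0.0663% of all genes higher and 0.0602% lower. CCN2, the siRNA target itself, was not called either (effect -1.93, adjusted p = 0.0553, edgeR). An absence of calls in this fit thus does not show that the members were unchanged. Before adjustment, 8 members had p under 0.05, and the smallest adjusted p was 0.331. DESeq2 and limma-voom also called 0 members, with 2 and 8 under 0.05 before adjustment. DESeq2 gave no adjusted p for 48 of the 98 members, so those could not be called. The 8 members of the edgeR fit were LINC00294, LINC00324, LINC00472, LINC01003, LINC01128, LINC01184, LINC01806 and LINC02693. With the 2 treatment arms, which share no library, 4 members (4.08%) were over 1.3 in both, against 3.25% of all genes, and 3 (3.06%) were under 0.7 in both, against 2.24%. A further 5 were past opposite thresholds, as were 678 of the 16599 genes. These shares were near those of all genes. The sign was the same in both arms for 57 members (58.2%), against 56.1% of all genes, and the Pearson r of the log2 fold changes was 0.07 over the members and 0.05 over all genes.

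LINC01003 had 1.76 CPM in siCTGF and 0.903 CPM in siControl cells with kahweol, and 3.22 CPM in siCTGF and 1.66 CPM in siControl cells without it. Its log2 fold change was 0.93 in each arm, with counting intervals of 0.11 to 1.78 with kahweol and 0.44 to 1.47 without. Neither factor passed in the fit (edgeR adjusted p = 0.426 for siCTGF and 0.0771 for kahweol), although the siCTGF library was the higher one in both arms. LINC00324 had 1.37 CPM in siCTGF and 2.46 CPM in siControl cells with kahweol (-0.82, interval -1.56 to -0.19), and 0.628 CPM in siCTGF and 1.54 CPM in siControl cells without it (-1.24, interval -2.18 to -0.47). LINC00672, LINC00899 and LINC02561 were the other members over 1.3 in both arms, with log2 fold changes of 0.63, 0.58 and 0.52 with kahweol and 0.56, 0.46 and 0.61 without. The intervals included 0 in both arms for LINC02561, without kahweol for LINC00672 (-0.33 to 1.69) and with kahweol for LINC00899 (-0.04 to 1.20). LINC00880 and LINC01411 were the others under 0.7 in both, with -0.85 and -0.61 with kahweol and -0.62 and -0.60 without, and their intervals in treated cells included 0.

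LINC00294, LINC01184 and LINC02693 gave narrower estimates. LINC00294 had 7.34 CPM in siCTGF and 9.96 CPM in siControl cells with kahweol, and 10.6 CPM in siCTGF and 15.1 CPM in siControl cells without it, an effect of -0.48 ± 0.15 (SE; adjusted p = 0.334, edgeR). LINC01184, now SLC12A2-DT, had 15.6 CPM in siCTGF and 10.5 CPM in siControl cells with kahweol, and 18.9 CPM in siCTGF and 15.3 CPM in siControl cells without it (0.44 ± 0.13, adjusted p = 0.331). LINC02693 had 57.9 CPM in siCTGF and 69.8 CPM in siControl cells with kahweol, and 38.8 CPM in siCTGF and 47.9 CPM in siControl cells without it (-0.29 ± 0.09, adjusted p = 0.353). In these 3 the siCTGF value was on the same side of siControl in both arms, and none passed the adjusted threshold. Other members stood far from 0 in 1 arm only. LINC02475 had a log2 fold change of -0.19 with kahweol and -1.54 without it, LINC02009 -0.04 and -1.05, and LINC01311 1.60 and -0.15. LINC01311 had 66 counts in siCTGF and 20 in siControl cells with kahweol, and 66 in siCTGF and 85 in siControl cells without it, so that the siControl library with kahweol stood apart.

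**Figure D5:**
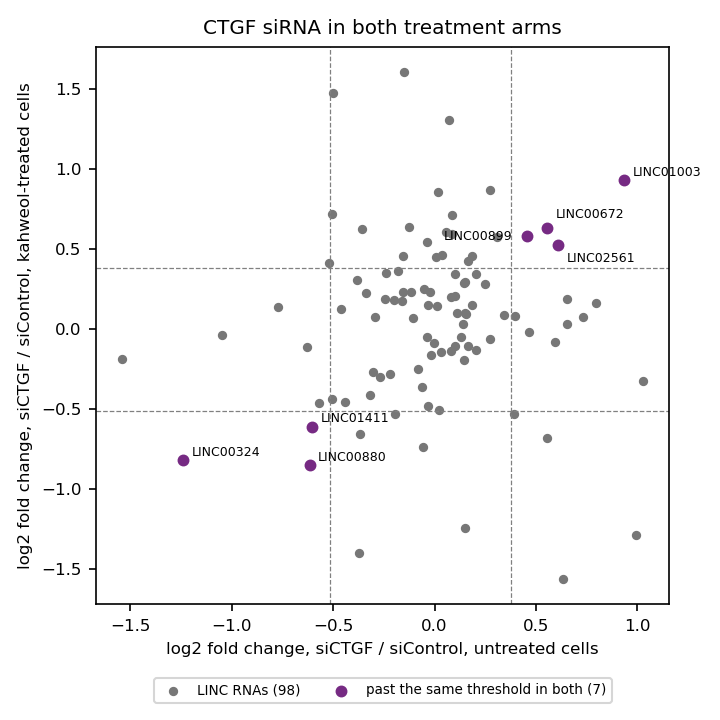
Log2 fold change of siCTGF against siControl in kahweol-treated cells (vertical axis) and in untreated cells (horizontal axis) for the 98 members, with dashed lines at folds of 1.3 and 0.7. The 7 purple points are past the same threshold in both arms, and the cloud shows little relation between the arms (Pearson r of 0.07).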

How the data were processed

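RNA-Seq was measured in 4 MDA-MB-231 libraries, 1 per condition. According to the submitters' processing notes, the tools were FastQC 0.11.7, Trimmomatic 0.38, HISAT2 2.1.0, Bowtie2 2.3.4.1 and StringTie 2.1.3b, with GRCh37.p13. The deposited estimated counts are whole-number reads per gene, made by the authors without normalization. FPKM and TPM were made by the authors with StringTie, and the coverage signal deposited by the authors is a mean depth per base. FPKM and coverage served only to check the counts: they imply 104 to 106 aligned bases per count, so 2 reads were taken as 1 fragment in the 95% Clopper-Pearson intervals, which cover counting error only.

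Counts were scaled by TMM in edgeR 4.0.16 (R 4.3.3) over genes averaging 10 counts or more. Log2 CPM used a prior count of 2, and single libraries were compared at folds of 1.3 and 0.7. An additive quasi-likelihood fit (1 residual degree of freedom) tested each factor, with Benjamini-Hochberg adjustment at 0.05, and takes the interaction as noise. Its SE is the absolute log2 effect divided by the square root of the F statistic. DESeq2 1.42.0 and limma 3.58.1 (voom) were alternatives, among 12 in all. Nearest genes came from the files' coordinates, transcript copies from GENCODE 29 by blastn 2.17.0 (at least 97% identity over at least 50% of a transcript; 89 members matched), and promoters and current symbols from RefSeq (97 members matched). No coordinates were converted. Tables used Python 3.11.15, numpy 2.4.6, pandas 2.3.3 and scipy 1.17.1.

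Named members were the 10 of highest TPM, every member called in the fit, the 3 highest and 3 lowest of each comparison, up to 6 per direction past a threshold in both arms, up to 4 of the carcinoma list per direction, the 3 on each side of the count limit, and the 3 of most and of least spread, with neighbours of those called. LINC00894 with its neighbour, ICMT, LINC01001, LINC01347, LINC01089 and LINC01833 were named after their values were seen. The members and lists were chosen with earlier results of these data known.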

Additional observations from a re-analysis of the deposited data

Results flagged for a closer look

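Some members moved past opposite fold thresholds in the 2 arms of a factor. With 1 library per condition these differences between arms were not tested, and the counting intervals cover counting error only. With kahweol, LINC00910 had a log2 fold change of -1.18 in siCTGF cells (36 against 102 counts; interval -2.08 to -0.42) and 1.10 in siControl cells (88 against 58 counts; interval 0.43 to 1.86). LINC00476 had 0.51 in siCTGF cells (203 against 173 counts) and -0.72 in siControl cells (79 against 190 counts), so that the siControl library with kahweol was the low one. LINC02475 had 0.39 in siCTGF cells (35 against 32 counts; interval -0.60 to 1.52) and -0.96 in siControl cells (39 against 112 counts).

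With siCTGF, the log2 fold change of LINC00910 was -1.29 with kahweol and 0.99 without it, from the same 4 counts. LINC02323 had -1.57 in kahweol-treated cells (19 against 58 counts) and 0.63 in untreated cells (122 against 90 counts). LINC02035 had -0.54 in kahweol-treated cells (208 against 294 counts) and 0.39 in untreated cells (576 against 507 counts). LINC01089 and LINC01833, outside the rule for naming members, had 0.41 and -0.68 with kahweol and -0.52 and 0.55 without it.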

How the results depend on the processing

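The siCTGF median in untreated cells, 0.01, lay so near 0 that it was -0.0041 by total count, -0.051 with log2(TPM + 0.1), -0.010 without a filter on low counts and -0.023 over the 61 members that averaged 100 or more counts. Of those 61, siCTGF put 6.56% under 0.7 in kahweol-treated cells, and 6.56% over 1.3 and 4.92% under 0.7 in untreated cells, but 26.2% over 1.3 in kahweol-treated cells, against 23.5% of all members. The siCTGF median with kahweol, 0.10, was 0.06 by total count and 0.03 with TPM. The kahweol median was -0.49 (total count) and -0.61 (TPM) in siCTGF cells, and -0.63 by both in siControl cells, and members over 1.3 in siCTGF cells were 14.3% and 12.2%. Under these scalings the median of all genes with kahweol lay at -0.15 in both arms (total count) and at -0.25 in siCTGF and -0.24 in siControl cells (TPM). Of 140 single values, 7 by total count and 12 by TPM came inside the thresholds, and 0 changed sign. In the fit, the alternatives gave 24 to 34 members lower and 7 to 10 higher with kahweol, and 0 with siCTGF in all. For siCTGF, DESeq2 left 48 members without an adjusted p. No paired analysis was possible because the labels number no replicates, and the fit already holds the other factor as a covariate (without it, 31 lower and 8 higher with kahweol). Low counts limit single members: 16 had fewer than 50 counts in both kahweol libraries.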
